A study of Mus musculus with 12 samples.

Results

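Semaphorins, ephrins and their receptors were followed through 4 RNA preparations of mouse cortex. The genes were taken by name: every protein-coding gene whose symbol begins with Sema, Plxna, Plxnb, Plxnc, Plxnd, Efna, Efnb, Epha or Ephb, together with Nrp1 and Nrp2. This gave 53 of the 29879 genes counted, 28 of them ligands and 25 of them receptors. The ligands were 7 secreted class 3 semaphorins, 12 transmembrane semaphorins of classes 4, 5 and 6, the membrane-anchored Sema7a, 5 ephrin-A and 3 ephrin-B genes. The receptors were 9 plexins, 2 neuropilins, 9 EphA and 5 EphB genes. Cortex was taken on postnatal day 21 from mice of the SNAP25 bacTRAP line, per the labels. In this line the promoter of Snap25, a gene of neurons, drives a ribosomal protein joined to green fluorescent protein (GFP), and an antibody to GFP pulls down the ribosomes of neurons with the mRNA on them. SynapTRAP is the pull-down from a gradient's synaptic band, SNF is that band before any pull-down, TRAP is the pull-down from whole cortex homogenate, and WCH is that homogenate. Each preparation had 3 libraries, all groups carried the transgene, and how many animals stood behind a library is not stated. Nothing in the labels says that replicates came from separate animals, so p-values measure only the spread between these libraries.

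Semaphorins act through plexins, which switch small GTPases to reshape the cytoskeleton, and most secreted class 3 semaphorins need a neuropilin as the binding partner that presents them to a plexin. Ephrins stay on the cell surface, the A type by a lipid anchor and the B type by a membrane-spanning segment, and meet Eph receptor tyrosine kinases on the facing cell, with signals passing both ways. In cortex both systems are known for steering axons during development and for shaping dendritic spines and synapses afterwards.

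The libraries held 4368881 to 14335089 counts over all genes, of which 9868 to 37018 belonged to the 53 genes. RNA of the mitochondrial genome took 82.2% to 87.3% of the counts in SNF and 33.6% to 50.9% in WCH, so sums are given as counts per 1000000 counts outside the mitochondrial genome, and levels of single genes at scaling by the trimmed mean of M-values (TMM). GFP reached 7.52 to 10.1 CPM in SynapTRAP against 2.88 to 3.72 CPM in SNF, and 21.5 to 55.1 CPM in TRAP against 4.66 to 7.26 CPM in WCH, where CPM is counts per 1000000 at TMM scaling. Neuronal markers were abundant in every group, with Slc17a7, the vesicular glutamate transporter of excitatory neurons, at a mean of 618 CPM in SynapTRAP, 658 CPM in SNF, 408 CPM in TRAP and 233 CPM in WCH. Snap25 itself averaged 2938 CPM in SynapTRAP, 3682 CPM in SNF, 8774 CPM in TRAP and 7147 CPM in WCH, lower in SNF than in WCH by edgeR (-0.96, adjusted p = 0.010) and lower in SynapTRAP than in TRAP (-1.58, adjusted p = 1.7e-04). Of the 53 genes, 49 passed the filter on low counts and were tested, 26 ligands and 23 receptors. The other 4 were Sema3g, Efna4, Epha1 and Epha2, with 39, 8, 37 and 7 counts over all 12 libraries. Exons of Efna4, Epha1, Ephb1, Ephb4, Nrp1, Plxna1 and Sema4a overlap another counted gene, and reads of such neighbours cannot be told apart, as no source used here says whether counting used strand.

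Summed over all members, guidance RNA took more of the counts outside the mitochondrial genome in both preparations from the synaptic band than in those from the homogenate. In counts per 1000000 outside the mitochondrial genome, ligands summed to 1498, 1894 and 1247 in SynapTRAP, 2206, 2619 and 2207 in SNF, 810, 1028 and 823 in TRAP, and 1070, 1030 and 1182 in WCH. Receptors summed to 2264, 3308 and 2411 in SynapTRAP, 3217, 4278 and 3382 in SNF, 1380, 1788 and 1429 in TRAP, and 1584, 1599 and 1718 in WCH. For both sums, every SNF library lay above every WCH library and every SynapTRAP library above every TRAP library. The TRAP and WCH ranges overlapped for receptors, and for ligands at TMM scaling, where TRAP libraries summed to 339 to 425 CPM and WCH libraries to 419 to 484 CPM. In bulk RNA, fewer cells of a type and less RNA per cell cannot be told apart.

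**Figure D1:**
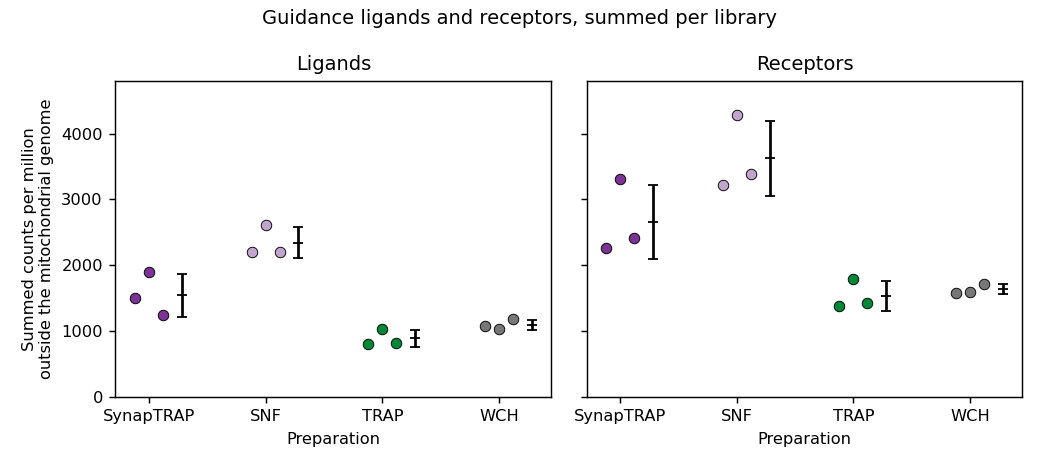
Summed level of the 28 ligands (left panel) and the 25 receptors (right panel) in each library, in counts per 1000000 outside the mitochondrial genome. Points are libraries, and the bar beside them is the mean with its SD over 3 libraries. SNF libraries sit at 2206 to 2619 for ligands and 3217 to 4278 for receptors, above all WCH libraries.

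The sums rested on a few genes. By CPM, Sema5a, a transmembrane semaphorin, held 15.2% of the ligand level in SynapTRAP, 20.7% in SNF, 12.2% in TRAP and 20.1% in WCH. Epha4, a receptor for ephrins of both types, held 21.5%, 20.4%, 16.4% and 20.4% of the receptor level in the same order of preparations. Compared per exon length, as RPKM (CPM divided by the exon length in kilobases), Epha4 had the highest mean level in SynapTRAP (37.8 ± 16.7, SD, n = 3), SNF (48.8 ± 8.20) and WCH (16.6 ± 2.26). In TRAP it stood at 13.7 ± 1.44 RPKM, within 1 SD of Sema7a, the semaphorin held on the membrane by a lipid anchor, at 13.8 ± 2.29 RPKM. Sema7a was the next highest member in SynapTRAP at 21.4 ± 6.43 RPKM, overlapping Epha4 at 1 SD, and in SNF at 21.9 ± 4.17 RPKM, below Epha4 by more than the spread. In WCH the next places went to Efnb3, a transmembrane ephrin, at 8.71 ± 0.857 RPKM, and Sema7a at 8.22 ± 0.783 RPKM, which overlapped each other. Further down, most neighbours in the order overlapped at 1 SD: 51 of 52 neighbouring pairs in SynapTRAP, 51 in SNF, 50 in TRAP and 47 in WCH.

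The comparison of SNF with WCH asks which guidance mRNAs stand higher, relative to most other genes, in the synaptic band than in whole cortex. By the edgeR quasi-likelihood test with Benjamini-Hochberg adjustment over all 13404 genes tested, 43 of the 49 tested members were higher in SNF, against 20.6% of all genes, while scaling to total gene counts, which in SNF are mostly mitochondrial, gave 0 higher and 27 lower. That scaling moved all genes, with 0.0821% of them higher and 85.4% lower. The 43 higher at TMM scaling were all 23 tested receptors and 20 of the 26 tested ligands. At that scaling no member was lower by edgeR, against 16.5% of all genes, or at an unadjusted p under 0.05, against 23.6%. DESeq2 called none lower either, against 11.1%. The median log2 fold change was 1.41 for ligands and 1.49 for receptors, against -0.25 for all genes tested. Taken relative to the all-gene median, these were 1.66 and 1.74, and 1.67 and 1.76 at scaling to total gene counts. SNF lay wholly above WCH for 44 of the 49, against 25.6% of all genes, and wholly below for 0, against 33.6%. Without SNF replicate 2, which held the highest SNF level of 39 of the 49, the count of higher members was 39.

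Among the receptors, Plxnb1 gave the largest difference. Plxnb1, the receptor of Sema4d, had 57.7, 31.3 and 45.7 CPM in SynapTRAP, 64.7, 55.3 and 40.9 in SNF, 8.97, 7.70 and 12.9 in TRAP, and 10.7, 7.57 and 9.26 in WCH. It lies on chromosome 9 at 109095389 to 109119917 (GRCm38, GENCODE M21). All 6 libraries of the synaptic band lay above all 6 of the homogenate, and the SNF difference from WCH was 2.55 ± 0.28 on the log2 scale (SE, adjusted p = 2.3e-06, edgeR). Its relatives Plxnb2 and Plxnb3 had log2 fold changes of 1.84 ± 0.28 (adjusted p = 2.95e-05, edgeR) and 1.73 ± 0.31 (adjusted p = 1.9e-04). Plxnb2 had 37.7, 48.7 and 28.7 CPM in SNF, against 11.9, 10.5 and 9.54 CPM in WCH. Plxnb3, known from oligodendrocytes, had 27.9, 32.2 and 19.5 CPM in SNF, against 10.8, 6.08 and 6.97 CPM in WCH. Neither pair of groups overlapped.

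The type A plexins, which serve class 3 and class 6 semaphorins, differed in the same direction at TMM scaling. Scaling to total gene counts turned Plxna4 to -0.49 and Plxna1 to -0.63, and neither passed there (adjusted p = 0.21 and 0.099, edgeR). Plxna4 had 249, 391 and 246 CPM in SNF, against 81.6, 91.0 and 72.9 CPM in WCH, a log2 fold change of 1.85 ± 0.26 (adjusted p = 1.4e-05, edgeR). Plxna1 had 87.5, 135 and 99.98 CPM in SNF, against 32.3, 30.7 and 37.2 CPM in WCH, a log2 fold change of 1.69 ± 0.23 (adjusted p = 1.25e-05, edgeR). The groups did not overlap for either gene, and over the 4 type A plexins the log2 fold changes ran from 1.38 to 1.85. Plxnc1, the receptor of Sema7a, and Plxnd1, the receptor of Sema3e, had 1.20 and 1.33. The neuropilins Nrp1 and Nrp2 had 1.39 and 1.35.

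All 12 tested Eph receptors were higher in SNF at TMM scaling, and none at scaling to total gene counts, with log2 fold changes from 1.09 in Epha3 to 2.19 in Ephb4. Ephb6, an Eph receptor with an inactive kinase domain, had 59.9, 86.2 and 47.0 CPM in SNF, against 21.1, 17.4 and 19.8 CPM in WCH, a log2 fold change of 1.73 ± 0.25 (adjusted p = 2.15e-05, edgeR). The value of Ephb4, known mainly from veins, rested on 3, 7 and 8 counts in SNF, against 5, 5 and 3 counts in WCH. That is 0.863, 1.86 and 1.95 CPM in SNF, against 0.386, 0.338 and 0.275 CPM in WCH. Its log2 fold change of 2.19 ± 0.80 (adjusted p = 0.035, edgeR) lost its call without SNF replicate 2 or 3 or any 1 WCH library, where the adjusted p reached 0.12. Epha8, at a mean of 3.31 CPM in SNF and 1.16 CPM in WCH, lost its call without SNF replicate 1 or 2 or WCH replicate 2 or 3, and Epha3 lost its call without SNF replicate 2. Epha4 had 352, 469 and 358 CPM in SNF, against 117, 132 and 153 CPM in WCH.

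Among the ligands, the secreted class 3 semaphorins held both the largest differences and some of the smallest. Sema3d had 13.1, 17.8 and 11.2 CPM in SynapTRAP, 18.1, 25.5 and 25.3 in SNF, 4.89, 1.27 and 4.03 in TRAP, and 3.55, 4.19 and 5.59 in WCH, with a log2 fold change of 2.37 ± 0.36 in SNF against WCH (adjusted p = 3.2e-05, edgeR). Sema3e, the ligand that binds Plxnd1 without a neuropilin, had 46.6, 82.5 and 37.9 CPM in SynapTRAP, 67.3, 79.8 and 94.9 in SNF, 20.1, 14.9 and 18.8 in TRAP, and 19.1, 19.9 and 22.6 in WCH. For both genes, every synaptic band library lay above every homogenate library. In SNF against WCH, Sema3e had a log2 fold change of 1.98 ± 0.26 (adjusted p = 9.7e-06, edgeR). Sema3c had 38.3, 49.996 and 40.4 CPM in SNF, against 8.95, 10.3 and 17.8 CPM in WCH, a log2 fold change of 1.80 ± 0.29 (adjusted p = 6.5e-05). Sema3a, a repellent that acts through Nrp1, had 72.2, 83.2 and 98.8 CPM in SNF, against 21.3, 23.0 and 32.3 CPM in WCH, a log2 fold change of 1.73 ± 0.25 (adjusted p = 2.25e-05). The groups of these 4 genes did not overlap. All 4 lie on 1 stretch of chromosome 5, from the start of Sema3d at 12383385 to the end of Sema3c at 17730268 (GRCm38, GENCODE M21).

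Sema3b and Sema3f, which lie near each other on chromosome 9, were low in every preparation. Sema3f, a ligand of Nrp2, had 6.34, 7.28 and 4.87 CPM in SynapTRAP, 2.88, 5.05 and 4.38 in SNF, 1.70, 3.17 and 4.88 in TRAP, and 3.63, 1.62 and 1.10 in WCH. Its SNF and WCH libraries overlapped, and its log2 fold change of 0.95 ± 0.47 did not pass the test (adjusted p = 0.12, edgeR). Without WCH replicate 1 it did (1.68, adjusted p = 0.020). Sema3b stayed at or below 1.44 CPM in every library. The other 4 ligands that did not pass were Efna1, Efna2, Efnb1 and Sema4c. The 6 ligands that did not pass had WCH means of 0.779 to 2.12 CPM, against 0.333 to 134 CPM for the 43 members that passed.

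Of the 12 transmembrane semaphorins, 11 were higher in SNF at TMM scaling, and 0 at scaling to total gene counts, with a median log2 fold change of 1.52 over the 12. Sema5b had 22.0, 29.2 and 18.0 CPM in SynapTRAP, 39.4, 51.6 and 40.6 in SNF, 11.9, 12.1 and 22.4 in TRAP, and 9.88, 10.8 and 11.1 in WCH. Sema6b had 36.6, 41.4 and 28.3 CPM in SynapTRAP, 33.4, 45.5 and 29.4 in SNF, 15.7, 20.9 and 24.0 in TRAP, and 9.49, 11.3 and 11.6 in WCH. Neither gene's SNF libraries overlapped those of WCH, and the log2 fold changes were 2.05 ± 0.27 (adjusted p = 9.6e-06, edgeR) for Sema5b and 1.74 ± 0.25 (adjusted p = 2.1e-05) for Sema6b. Sema4g had 23.9, 25.8 and 18.2 CPM in SNF, against 8.88, 8.72 and 5.23 CPM in WCH, a log2 fold change of 1.56 ± 0.30 (adjusted p = 3.7e-04, edgeR). Sema6c, at 4.60, 8.78 and 2.92 CPM in SNF against 2.32, 1.49 and 1.74 CPM in WCH, lost its call without SNF replicate 2. Ephrins had the lowest family median, 1.01 over the 7 tested, and 4 of them passed: Efna3, Efna5, Efnb2 and Efnb3.

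The authors' deposited table of genes enriched in the band lists 3508 genes, all with positive log2 fold changes, the lowest 0.47. Because it lists no gene lower in the band, the absence of lowered members from it is not a result. Its highest false discovery rate was 0.106, above the adjusted p threshold used here. The table holds 45 of the 53 members, 22 ligands and 23 receptors, with log2 fold changes of 1.13 to 2.83 in that table. It holds every 1 of the 43 members called higher here, and Sema4c and Efna2 besides. That table comes from the same series and an edgeR-type test, so this overlap is not independent evidence. The authors' deposited tables of 109 local and 275 somatic translation candidates hold 0 members. Beside 29879 genes counted, lists this short would hold few of any 53 genes, so the 0 is not a result about the members.

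**Figure D2:**
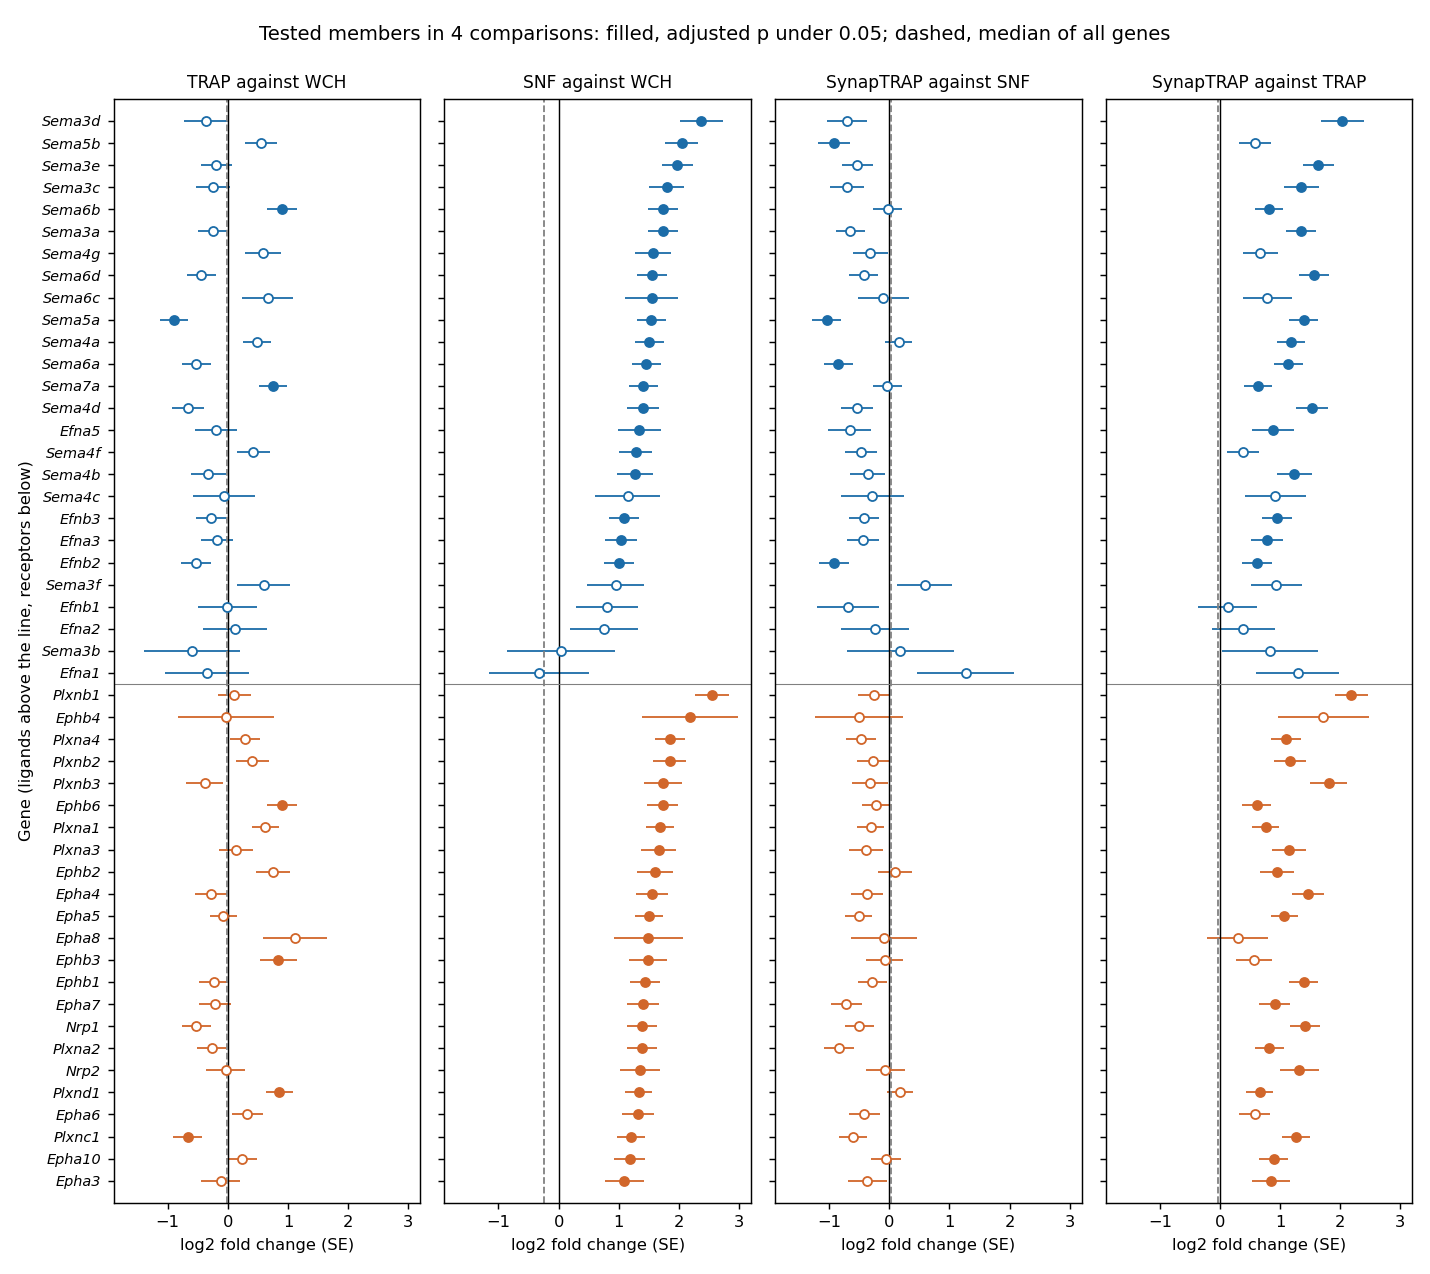
Log2 fold change (horizontal axis) of the 49 tested members in 4 comparisons at TMM scaling, with bars of 1 SE from the edgeR fit, ligands above the line and receptors below. Filled points have an adjusted p under 0.05, and the dashed line is the median of all genes tested. In SNF against WCH, 43 points are filled and all receptors lie at 1.09 or above. Scaling to total gene counts would move the dashed line by -2.35 in this comparison and leave 0 members called higher, with the medians of ligands and receptors 1.67 and 1.76 above the line.

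The comparison of SynapTRAP with TRAP asks the same of tagged ribosomes: those from the synaptic band against those from whole cortex. Of the 49 tested members, 35 were higher in SynapTRAP by edgeR, against 21.6% of all genes, and scaling to total gene counts left 2 higher, Sema3d and Plxnb1, with 4.43% of all genes higher and 47.8% lower. At TMM scaling they were 19 of the 23 tested receptors and 16 of the 26 tested ligands. No member was lower by edgeR, against 18.1% of all genes, or at an unadjusted p under 0.05, against 22.6%. DESeq2 called 32 higher and none lower, against 22.1% and 18.3% of all genes. Median log2 fold changes were 0.93 for ligands and 1.07 for receptors, against -0.02 for all genes. SynapTRAP lay wholly above TRAP for 34 members and wholly below for 0, against 21.4% of all genes each way. The number higher ranged from 24, without TRAP replicate 1, to 39, without SynapTRAP replicate 3. Its 35 higher members were all among the 43 of 49 higher in SNF against WCH. These comparisons share no library, but they come from the same fit. Same-numbered SNF and SynapTRAP libraries also deviated together, so the overlap is not independent evidence.

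All 9 plexins were higher in SynapTRAP than in TRAP at TMM scaling, and 1 of them at scaling to total gene counts, led by Plxnb1 with a log2 fold change of 2.19 ± 0.27 (adjusted p = 4.0e-06, edgeR). Plxnb3 had 14.8, 17.0 and 32.6 CPM in SynapTRAP, against 6.59, 5.53 and 6.08 CPM in TRAP, a log2 fold change of 1.81 ± 0.31 (adjusted p = 1.2e-04, edgeR). Plxnc1 had 29.9, 47.9 and 41.7 CPM in SynapTRAP, against 13.3, 20.5 and 16.1 CPM in TRAP, a log2 fold change of 1.26 ± 0.24 (adjusted p = 2.6e-04). None of these 3 genes had overlapping groups. The smallest plexin differences were 0.66 in Plxnd1, 0.76 in Plxna1 and 0.82 in Plxna2, and these 3 lost their calls without TRAP replicate 1, Plxna2 also without SynapTRAP replicate 2 and Plxnd1 also without TRAP replicate 2. Both neuropilins were higher as well. Nrp1, the coreceptor for Sema3a, had 28.6, 45.6 and 29.9 CPM in SynapTRAP, against 12.9, 10.6 and 15.6 CPM in TRAP, a log2 fold change of 1.41 ± 0.24 (adjusted p = 1.2e-04, edgeR). Nrp2, the coreceptor for Sema3f, had 22.4, 44.3 and 14.0 CPM in SynapTRAP, against 15.3, 8.52 and 8.56 CPM in TRAP. The Nrp2 groups overlapped, and its log2 fold change of 1.32 ± 0.32 (adjusted p = 0.0028, edgeR) lost its call without SynapTRAP replicate 2, where the adjusted p was 0.052.

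Among the Eph receptors, Epha4 had 247, 458 and 208 CPM in SynapTRAP, against 101, 107 and 123 CPM in TRAP, a log2 fold change of 1.47 ± 0.27 (adjusted p = 1.9e-04, edgeR). Ephb1 had 31.8, 24.9 and 39.96 CPM in SynapTRAP, against 13.1, 8.88 and 14.7 CPM in TRAP, a log2 fold change of 1.39 ± 0.24 (adjusted p = 1.3e-04). Neither gene's groups overlapped. Ephb4 had 1.68, 1.21 and 0.295 CPM in SynapTRAP, against 0.204, 0.544 and 0.257 CPM in TRAP, with overlapping groups and a log2 fold change of 1.72 ± 0.75 that did not pass (adjusted p = 0.073, edgeR). Without SynapTRAP replicate 3 it did (2.10, adjusted p = 0.031). The other 3 receptors that did not pass were Epha6, Epha8 and Ephb3. Epha3, Epha7, Ephb2 and Ephb6 were called but lost the call when single libraries were left out: Epha7 without SynapTRAP replicate 2, Ephb2 without TRAP replicate 1, Epha3 without any of 5 libraries and Ephb6 without any of 9.

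The 4 secreted semaphorins of chromosome 5 were also higher in SynapTRAP than in TRAP at TMM scaling, and Sema3d alone of them at scaling to total gene counts. Log2 fold changes were 2.03 ± 0.35 for Sema3d (adjusted p = 1.4e-04, edgeR) and 1.64 ± 0.26 for Sema3e (adjusted p = 5.6e-05). Sema3c had 27.8, 32.6 and 18.7 CPM in SynapTRAP, against 9.45, 13.8 and 7.88 CPM in TRAP, a log2 fold change of 1.36 ± 0.29 (adjusted p = 8.2e-04, edgeR). Sema3a had 49.3, 72.1 and 40.5 CPM in SynapTRAP, against 17.5, 21.6 and 25.01 CPM in TRAP, a log2 fold change of 1.34 ± 0.25 (adjusted p = 2.5e-04). None of the 4 had overlapping groups, and Sema3f, given above, did not pass at 0.94 ± 0.42 (adjusted p = 0.082, edgeR). Without TRAP replicate 3 it did (1.32, adjusted p = 0.035).

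Of the transmembrane semaphorins, 7 of 12 were higher at TMM scaling and 0 at scaling to total gene counts. Sema6d had 104, 90.0 and 61.2 CPM in SynapTRAP, against 21.3, 27.0 and 38.5 CPM in TRAP, a log2 fold change of 1.56 ± 0.25 (adjusted p = 4.9e-05, edgeR). Sema4d, the ligand of Plxnb1, had 30.8, 41.6 and 33.2 CPM in SynapTRAP, against 6.46, 15.5 and 14.8 CPM in TRAP, a log2 fold change of 1.53 ± 0.27 (adjusted p = 0.000155). Both pairs of groups stood apart. Sema5a had 86.1, 154 and 136 CPM in SynapTRAP, 235, 315 and 224 in SNF, 51.5, 44.0 and 47.4 in TRAP, and 76.6, 83.7 and 106 in WCH, with SynapTRAP wholly above TRAP and a log2 fold change of 1.39 ± 0.24 (adjusted p = 1.3e-04, edgeR). Sema4g, at 0.67 ± 0.29, did not pass (adjusted p = 0.069, edgeR) and did with the replicate number as a block (0.68, adjusted p = 0.045). Sema6b was called at 0.82 and lost the call without TRAP replicate 1, and Sema7a was called at 0.63 and lost it without any of 7 libraries. Of the ephrins, Efna3, Efna5, Efnb2 and Efnb3 were called, at 0.62 to 0.95, and 3 of them lost the call when single libraries were left out: Efna3 without any of 3 libraries, Efna5 without any of 9 and Efnb2 without any of 11. The groups of Efna5 and Efnb2 overlapped.

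**Figure D3:**
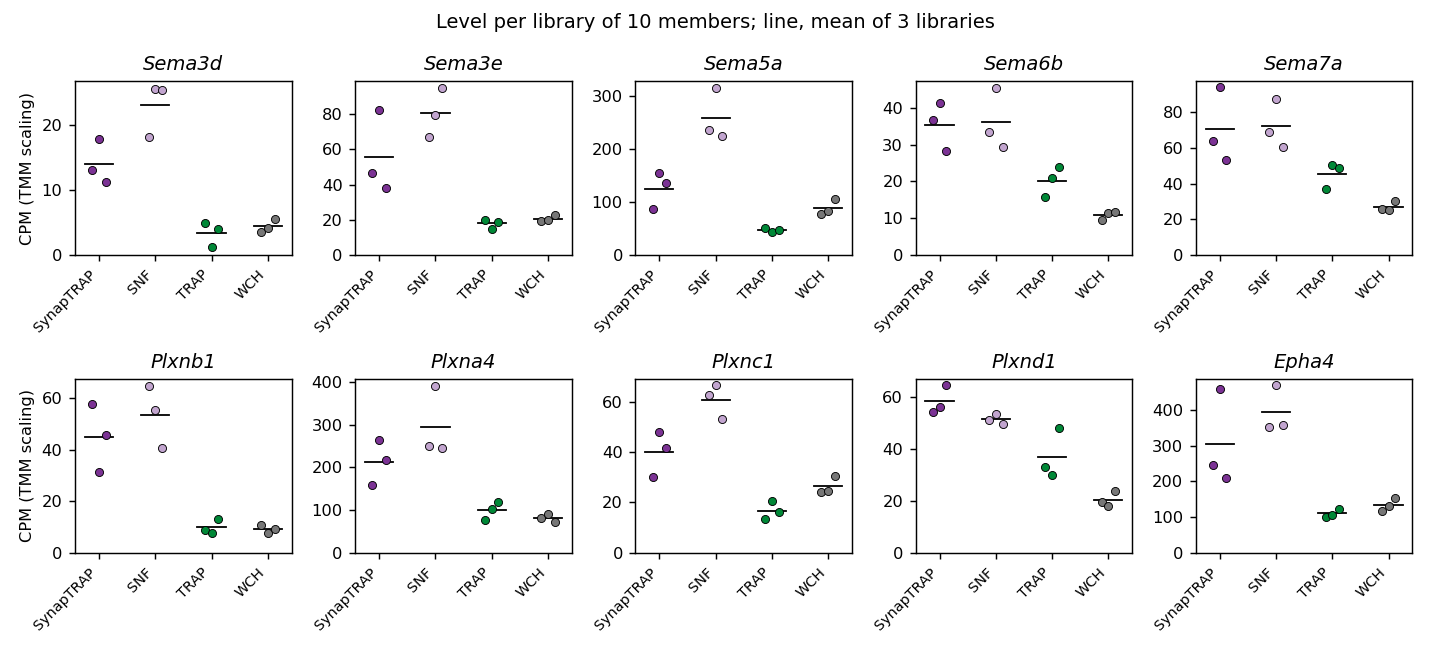
Level of 10 members in each library, in CPM at TMM scaling, with a line at the mean of 3 libraries. In SNF, Plxnb1 lies at 40.9 to 64.7 CPM, against 7.57 to 10.7 CPM in WCH. Sema6b, Sema7a and Plxnd1 are higher in TRAP than in WCH, and Sema5a and Plxnc1 are lower, calls that scaling to total gene counts changes in number.

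The comparison of TRAP with WCH asks which guidance mRNAs are enriched on tagged ribosomes of whole cortex. Here 5 of the 49 tested members (10.2%) were higher in TRAP by edgeR, near the 11.1% of all genes. Another 2 (4.08%) were lower, below the 10.9% of all genes. Scaling to total gene counts gave 11 higher and 0 lower, with 21.4% of all genes higher and 1.72% lower. At TMM scaling that is 2 ligands and 3 receptors higher, and 1 ligand and 1 receptor lower. Medians were -0.20 for ligands and 0.11 for receptors, against -0.01 for all genes. TRAP lay wholly above WCH for 7 members, against 20.6% of all genes, and wholly below for 6, against 22.5%. The number higher was 1 without WCH replicate 2, 2 without WCH replicate 1 or TRAP replicate 3, 3 without WCH replicate 3 or TRAP replicate 2, and 9 without TRAP replicate 1. The number lower was 0 without WCH replicate 3 and 1 or 2 without any other library. DESeq2 called 7 higher and 2 lower, against 13.1% and 11.1% of all genes.

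Of the ligands, Sema6b was higher in TRAP by 0.90 ± 0.24 on the log2 scale (adjusted p = 0.011, edgeR), with no overlap between the libraries given above. Sema7a had 63.9, 94.1 and 53.2 CPM in SynapTRAP, 68.8, 87.2 and 60.3 in SNF, 36.8, 50.7 and 49.0 in TRAP, and 26.01, 25.3 and 30.1 in WCH, a log2 fold change of 0.75 ± 0.24 in TRAP against WCH (adjusted p = 0.028, edgeR). Its TRAP and WCH libraries did not overlap. Sema5a was lower in TRAP, with every TRAP library at 44.0 to 51.5 CPM below every WCH library at 76.6 to 106 CPM and a log2 fold change of -0.90 ± 0.24 (adjusted p = 0.011, edgeR). Sema3e had -0.19 ± 0.26 with overlapping groups (adjusted p = 0.63, edgeR).

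Of the receptors, Ephb6 had 32.0, 42.3 and 34.4 CPM in TRAP, against 21.1, 17.4 and 19.8 CPM in WCH, a log2 fold change of 0.90 ± 0.24 (adjusted p = 0.011, edgeR). Plxnd1 had 54.4, 56.3 and 64.9 CPM in SynapTRAP, 51.2, 53.7 and 49.9 in SNF, 33.2, 30.0 and 48.0 in TRAP, and 19.6, 18.2 and 23.8 in WCH, and TRAP stood above WCH by a log2 fold change of 0.85 ± 0.22 (adjusted p = 0.0088, edgeR). Neither gene's TRAP and WCH libraries overlapped. Ephb3, an ephrin-B receptor, had 7.34, 11.7 and 14.6 CPM in TRAP, against 4.94, 7.64 and 6.14 CPM in WCH. Its groups overlapped, with a log2 fold change of 0.84 ± 0.30 (adjusted p = 0.049, edgeR). Plxnc1 was lower in TRAP, with 13.3, 20.5 and 16.1 CPM in TRAP, against 24.3, 24.3 and 30.6 CPM in WCH, a log2 fold change of -0.67 ± 0.23 (adjusted p = 0.043, edgeR) and no overlap. Sema7a and its receptor Plxnc1 were thus called in opposite directions. Each of the 7 calls was lost without at least 1 library: without WCH replicate 1 for Sema6b, WCH replicate 2 for Ephb6, WCH replicate 2 or TRAP replicate 3 for Plxnd1, WCH replicate 3 or TRAP replicate 2 for Sema5a. Sema7a lost its call without any 1 WCH library or TRAP replicate 2 or 3, and Ephb3 and Plxnc1 each lost theirs without any of 7 libraries.

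The comparison of SynapTRAP with SNF asks which guidance mRNAs of the synaptic band are held on tagged ribosomes, and few members passed the test. By edgeR 4 of the 49 tested members were lower in SynapTRAP, against 1.79% of all genes, and all 4 were ligands. With the replicate number as a block, the receptor Plxna2 was lower as well. Scaling to total gene counts gave 0 lower and 48 higher, with 0.0448% of all genes lower and 90.8% higher. No member was higher by edgeR, against 2.29% of all genes, or at an unadjusted p under 0.05, against 10.9%. DESeq2 called none higher either, against 2.79%. Medians were -0.43 for ligands and -0.32 for receptors, against 0.03 for all genes. SynapTRAP lay wholly below SNF for 10 ligands and 2 receptors, against 10.0% of all genes, and wholly above for 1 ligand, Efna1, and 1 receptor, Plxnd1, against 12.4%. The difference between ligands and receptors was not tested. At an unadjusted p under 0.05, 8 ligands and 5 receptors were lower, against 8.71% of all genes, and by DESeq2 5 ligands and 3 receptors, against 4.68%.

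The libraries of Sema5a and Sema5b, the transmembrane semaphorins with thrombospondin repeats, are given above, and in both genes every SynapTRAP library lay below every SNF library. Log2 fold changes were -1.04 ± 0.24 for Sema5a (adjusted p = 0.018, edgeR) and -0.92 ± 0.26 for Sema5b (adjusted p = 0.049). Efnb2, a transmembrane ephrin, had 30.7, 51.5 and 24.2 CPM in SynapTRAP, against 63.6, 71.8 and 66.7 CPM in SNF, a log2 fold change of -0.92 ± 0.25 (adjusted p = 0.037, edgeR). Sema6a, a ligand of Plxna2, had 86.9, 99.5 and 57.2 CPM in SynapTRAP, against 129, 181 and 128 CPM in SNF, a log2 fold change of -0.85 ± 0.24 (adjusted p = 0.046). The groups of these 4 genes did not overlap. Plxna2 had 120, 208 and 167 CPM in SynapTRAP, against 247, 369 and 267 CPM in SNF, without overlap, and did not pass at -0.84 ± 0.24 (adjusted p = 0.053, edgeR). With the replicate number as a block it did (-0.85, adjusted p = 0.017). Ephb4, the receptor of Efnb2, had -0.50 ± 0.73 (adjusted p = 0.77, edgeR) with overlapping groups. Fitting only the 2 groups compared called 0 members lower. The count was 0 without any 1 SNF library or SynapTRAP replicate 1, 1 without WCH replicate 2 or 3 or SynapTRAP replicate 3, and 9 without SynapTRAP replicate 2.

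The effect of the pull-down in the band was also set against its effect in the homogenate. By edgeR 0 members differed, against 0.507% of all genes higher and 0.358% lower; at an unadjusted p under 0.05, 0 were higher and 10 lower, 5 of them ligands and 5 receptors, against 9.54% and 7.76% of all genes. DESeq2 called 0 higher and 3 lower, Ephb6, Plxna1 and Sema5b, against 1.41% and 3.1% of all genes. Sema5b came nearest, with a log2 difference of -1.47 ± 0.37 (adjusted p = 0.059, edgeR), and passed with the replicate number as a block (-1.45, adjusted p = 0.033). Behind it stood a log2 fold change of -0.92 in SynapTRAP against SNF and 0.55 in TRAP against WCH.

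Other guidance systems and the proteins that act below the receptors were counted from lists. Of 11 tested ligands of the netrin, Slit, repulsive guidance molecule and chemokine systems, 7 were higher and 0 lower in SNF than in WCH, 5 and 0 in SynapTRAP than in TRAP, and 3 and 0 in TRAP than in WCH. Slit1, a ligand of Robo receptors, averaged 51.9 ± 15.0 CPM in SNF and 10.8 ± 2.23 CPM in WCH (SD, n = 3 each), a log2 fold change of 2.26 ± 0.27 (adjusted p = 4.0e-06, edgeR). Of 23 other tested receptors and coreceptors, 18 were higher and 0 lower in SNF, 17 and 0 in SynapTRAP against TRAP, and 3 and 2 in TRAP against WCH. The last 2 counts were near the shares of all genes. L1cam, an adhesion molecule that joins Nrp1 in the Sema3a receptor, averaged 532 ± 105 CPM in SNF and 94.9 ± 14.5 CPM in WCH, a log2 fold change of 2.49 ± 0.26 (adjusted p = 2.3e-06). Unc5d, a netrin receptor, was lower in TRAP than in WCH (-0.98 ± 0.25, adjusted p = 0.0085) and lower in SynapTRAP than in SNF (-1.05 ± 0.25, adjusted p = 0.021).

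A list of 55 tested genes held effectors inside the cell and surface proteases. At TMM scaling 3 were higher and 14 lower in SNF than in WCH, against 20.6% and 16.5% of all genes. In SynapTRAP against TRAP 11 were higher and 14 lower, against 21.6% and 18.1%, and in TRAP against WCH 11 were higher and 5 lower, against 11.1% and 10.9%. The 3 that were higher in SNF were Adam10 (1.20 ± 0.27, adjusted p = 0.0013, edgeR), Adam17 (1.12 ± 0.26) and the kinase Yes1. Adam10 and Adam17 are membrane proteases that cut ephrins, semaphorins and other surface proteins. The lower effectors included Rnd3 at -1.39 ± 0.34 (adjusted p = 0.0033, edgeR), and the kinases Pak3 and Pak1 at -1.28 ± 0.25 and -1.09 ± 0.23. Pak1 averaged 137 ± 13.1 CPM in SNF and 292 ± 21.6 CPM in WCH. Kalrn, a protein of dendritic spines, averaged 1370 ± 877 CPM in TRAP and 202 ± 6.44 CPM in WCH, a log2 fold change of 2.76 ± 0.32 (adjusted p = 1.9e-05, edgeR). In SynapTRAP against SNF, 0 of the other ligands, 1 of the other receptors (Unc5d, lower) and 1 effector (Arhgef11, higher) passed. Of all genes, 2.29% were higher and 1.79% lower there.

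**Figure D4:**
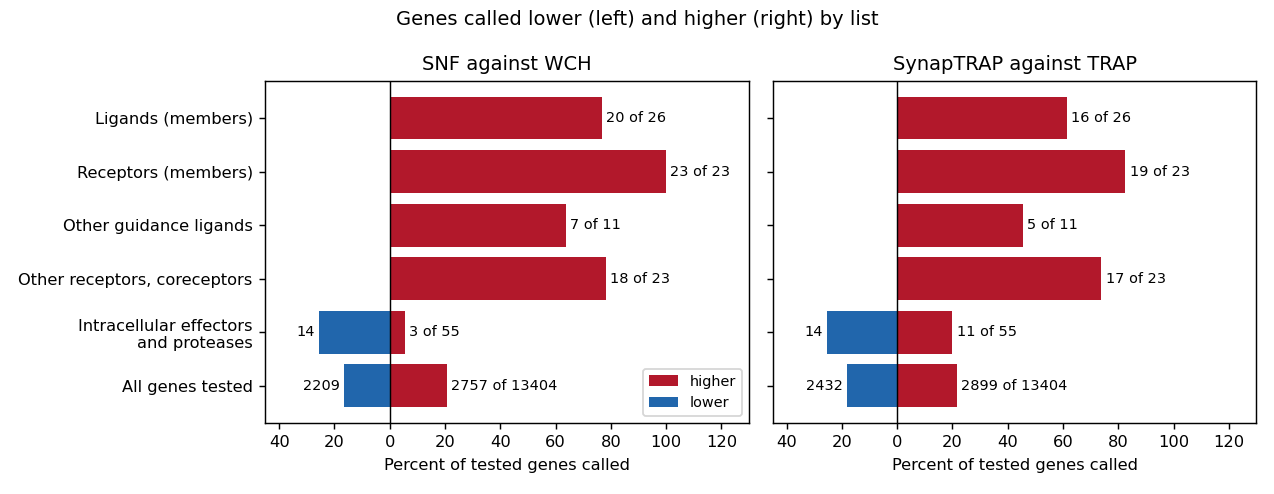
Percent of the tested genes of each list called lower (left of 0) and higher (right of 0) by edgeR at TMM scaling in SNF against WCH and SynapTRAP against TRAP, with the counts beside the bars. Ligands and receptors of all guidance lists lie on the higher side, and intracellular effectors lie on both sides, with 14 lower in each comparison. At scaling to total gene counts 0 members are called higher in SNF and 2 in SynapTRAP, with 0.0821% and 4.43% of all genes.

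Markers of other cells were counted in the same comparisons, for which the shares of all genes are given above. In SNF against WCH, 19 of 20 astrocyte, 12 of 20 oligodendrocyte, 4 of 9 precursor, 20 of 20 microglia, 2 of 14 endothelial, 5 of 9 mural and 12 of 12 fibroblast and meninges markers were higher and 0 lower, and of 20 neuronal markers 6 were higher and 4 lower. Astrocyte markers summed to 16273 to 22052 CPM in SNF against 2790 to 3507 CPM in WCH, and to 11400 to 19413 CPM in SynapTRAP against 915 to 1902 CPM in TRAP. Microglia markers summed to 470 to 957 CPM in SNF against 131 to 151 CPM in WCH, and to 299 to 667 CPM in SynapTRAP against 37.7 to 81.6 CPM in TRAP. In TRAP against WCH, 8 neuronal and 2 endothelial markers were higher and 0 lower, 9 astrocyte, 12 oligodendrocyte, 3 precursor and 8 microglia markers were lower and 0 higher, 1 fibroblast and meninges marker was higher and 2 lower, and 0 mural markers passed in either direction. In SynapTRAP against TRAP, 20 astrocyte, 16 oligodendrocyte, 8 precursor, 20 microglia, 4 mural and 10 fibroblast and meninges markers were higher and 0 lower, 0 endothelial markers passed, and 6 neuronal markers were higher and 6 lower. In SynapTRAP against SNF, 3 oligodendrocyte markers and 1 microglia marker were lower, and 2 neuronal markers were higher. Endothelial markers summed to 29.8 to 54.7 CPM in SynapTRAP, 22.6 to 36.0 CPM in SNF, 12.6 to 68.4 CPM in TRAP and 12.97 to 14.5 CPM in WCH, with the defining genes Cldn5 and Pecam1 at means of 1.46 and 1.76 CPM in SynapTRAP, 1.01 and 0.782 CPM in SNF, 1.37 and 0.768 CPM in TRAP, and 0.372 and 0.105 CPM in WCH. The part of these other cells in the levels of the guidance genes was not tested.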

How the data were processed

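RNA sequencing counts of 12 cortex libraries, 3 each of SynapTRAP, SNF, TRAP and WCH, were analysed. The authors deposited whole-number read counts per gene and library, not normalized. The tools named, per the submitters' processing notes, were HTSeq, STAR, Bowtie2 and edgeR; versions, build, annotation and strand setting were not given in the sources used here. Per the labels, cDNA came from a NuGEN kit. Of the tables the authors deposited for selected genes, only log2 fold changes, gene membership and the highest false discovery rate were used. Their p-values, false discovery rates and likelihood ratio scores come from an edgeR-type test, per the file headers. The last 5 lines of each count file, reads counted for no gene, held 19.3% to 58.3% of the reads and were left out. Symbols, coordinates and exon lengths came from GENCODE M21 (GRCm38), which named 28758 of 29879 identifiers.

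One edgeR model (version 4.0.16, R 4.3.3) with a mean per group took all 12 libraries. It used TMM scaling, and filterByExpr left 13404 genes for the robust quasi-likelihood test of 5 contrasts. Members with a Benjamini-Hochberg adjusted p under 0.05 over all genes were called. Every adjusted p in the text is from this test unless another tool is named, and the SE of a log2 fold change is its size divided by the square root of F. Replicates differed by more than sampling noise in every pair (chi-square per gene of 8.28 to 252), with Spearman correlations across genes of 0.946 to 0.977. Same-numbered SNF and SynapTRAP libraries deviated together (correlations of 0.218 to 0.378), as did TRAP and SynapTRAP libraries (0.104 to 0.144). The numbers were therefore taken to pair these groups, from the data and not from the labels. The main test did not use this pairing, which entered only where the replicate number was a block. The scripts were tested on simulated data.

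The members, the gene lists and the tests were chosen with earlier results of these data known. Named for each comparison were up to 7 ligands and 7 receptors with the largest change among those called, and up to 3 that did not pass but whose partner did. Other genes in the text serve to account for the members, and were chosen after their values were seen. Alternatives were other scalings, no filter, DESeq2 1.42.0, only the groups compared, a replicate block and leaving out each library. Intervals and counts are limited by depth, since SNF libraries held as few as 1819853 counts outside the mitochondrial genome.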

Additional observations from a re-analysis of the deposited data

How the results depend on the processing

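The choice of scaling changed the most, and the large shifts came with scaling to total gene counts. TMM scaling on genes outside the mitochondrial genome left all 45 values of named members on the same side of the threshold. It moved the median of all genes in SNF against WCH by 0.0023. Scaling to total gene counts moved the median of all genes by 0.58 in TRAP against WCH, -2.35 in SNF against WCH, 1.95 in SynapTRAP against SNF, -0.98 in SynapTRAP against TRAP and 1.39 in the difference of pull-down effects, on the log2 scale. It gave 11 members higher and 0 lower in TRAP against WCH, 0 and 27 in SNF against WCH, and 48 and 0 in SynapTRAP against SNF. In SynapTRAP against TRAP it gave 2 higher. The shares of all genes for these 4 are given in the report. In the difference it gave 11 of the 49 higher, against 47.2% of all genes higher and 0% lower. In SNF against WCH it turned Sema5b to -0.28, Sema3e to -0.35, Sema3c to -0.48, Sema6b to -0.59, Sema3a to -0.57, Sema4g to -0.83, Sema3f to -1.44, Ephb4 to -0.11, Plxna4 to -0.49, Plxnb2 to -0.52, Plxnb3 to -0.65, Ephb6 to -0.61 and Plxna1 to -0.63. Of these only Sema3f passed the test (adjusted p = 0.017, edgeR), and the others ran from 0.063 in Sema4g to 0.91 in Ephb4. All of them lay above the median of all genes, which was -2.60 at that scaling. In SynapTRAP against SNF the same scaling turned Sema5a to 0.92, Sema5b to 1.10, Efnb2 to 1.15, Sema6a to 1.19 and Plxna2 to 1.14. These passed the test (adjusted p = 0.0035 to 0.017, edgeR) and lay below the median of all genes, which was 1.98. The medians of ligands and receptors relative to all genes kept their sign at every setting. In TRAP against WCH, RLE scaling and no filter each gave 1 member lower. In SynapTRAP against SNF, DESeq2 gave 8 lower and fitting the 2 groups alone gave 0. In the difference, RLE scaling, no filter and the replicate block each gave 1 lower and DESeq2 gave 3. With 1 library left out, members higher and lower ranged from 1 to 9 and 0 to 2 in TRAP against WCH, 39 to 43 higher in SNF against WCH, 0 to 9 lower in SynapTRAP against SNF, 24 to 39 higher in SynapTRAP against TRAP and 0 to 2 lower in the difference. Over all genes, calls higher and lower in SNF against WCH were 2757 and 2209, and 2966 and 1415 by RLE scaling and 3057 and 1491 by DESeq2. In SynapTRAP against SNF they were 307 and 240, and 185 and 366 by RLE scaling, 374 and 627 by DESeq2 and 140 and 121 with the 2 groups alone, 547 and 340 without the filter and 441 and 393 with the replicate block. In the difference they were 68 and 48, and 38 and 75 by RLE scaling, 310 and 202 without the filter, 189 and 416 by DESeq2 and 217 and 149 with the replicate block. In SynapTRAP against TRAP they were 2899 and 2432, and 2426 and 1458 with the 2 groups alone. Values of named members were counted for 3 kinds of alternative. Scaling to total gene counts left 9 the same, with 16 calls lost, 18 turned round and 2 not called that changed sign. Leaving out 1 library at a time left 477 values on the same side of the threshold, with 7 gained and 56 lost. The other alternatives left 257 on the same side, with 4 gained and 7 lost. The replicate number as a block gave 7 members higher and 3 lower in TRAP against WCH, adding Ephb2 and Plxna1 as higher and Sema4d as lower, where the numbers do not pair the libraries (correlations of -0.0149 to 0.0634), and beyond these and the calls given in the report it changed no other call of a member. The causes of these changes were not tested. SNF libraries were the shallowest outside the mitochondrial genome, so members of few counts, such as Ephb4 and Efna1, are the least certain there.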

Other observations

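Members did not spread evenly over the libraries of a group. The highest of the 3 SNF levels fell in replicate 2 for 39 of the 49 tested members, 19 ligands and 20 receptors, or 79.6%, against 34.8% of all genes tested. The highest SynapTRAP level fell in replicate 2 for 35 of the 49, or 71.4%, against 33.0% of all genes. In replicate 3 of SynapTRAP it fell for 3 members, all of them receptors, or 6.12%, against 38.7% of all genes. In WCH it fell in replicate 3 for 29 members, or 59.2%, against 39.3%. In the TRAP group, replicates 2 and 3 each held the highest level of 21.

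Sema3g, a secreted semaphorin known from blood vessels, was too low to be tested. It had 9, 3 and 1 counts in SynapTRAP, 0, 0 and 2 in SNF, 2, 19 and 1 in TRAP, and 0, 0 and 2 in WCH. The endothelial markers summed to 12.6, 68.4 and 16.4 CPM in TRAP replicates 1, 2 and 3. The part of endothelial cells in these counts was not tested.

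Levels of 2 ligands and their receptors were set side by side. Sema7a and Plxnc1 averaged 70.4 and 39.8 CPM in SynapTRAP, 72.1 and 60.7 in SNF, 45.5 and 16.6 in TRAP, and 27.1 and 26.4 in WCH. Sema3e and Plxnd1 averaged 55.7 and 58.5 CPM in SynapTRAP, 80.7 and 51.6 in SNF, 17.9 and 37.1 in TRAP, and 20.5 and 20.5 in WCH. No test of these ratios was made.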
